A study of Mus musculus with 2 samples.

Results

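Laminins, nidogens and the heparan sulfate proteoglycans perlecan and agrin build the basement membrane, the thin matrix sheet under the vessel lining and around vessel wall cells and Schwann cells. The 10 genes described here, Lama2, Lama4, Lama5, Lamb1, Lamb2, Lamc1, Nid1, Nid2, Hspg2 and Agrn, were chosen by symbol out of 31053 measured genes, and all 10 had a row in both tables. They were followed in the dental pulp, the soft tissue inside the tooth, of C57BL/6 mice at postnatal day 12. The series holds 2 single-cell RNA-seq libraries of cells that excluded propidium iodide. One came from mice labelled control and the other from mice labelled Vegfr2 knockout, described in the series as an endothelial knockout. The Cre driver, the alleles carried by the controls and the number of animals pooled per library are not given in the sources used here.

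A laminin is a trimer of an alpha, a beta and a gamma chain, and the alpha chain sets which receptors it binds. Lama4 and Lama5 are the alpha chains known from vessel basement membranes and Lama2 is the alpha chain known from muscle and Schwann cells. Lamb1 and Lamb2 are alternative beta chains, and Lamc1 is the gamma chain shared by most laminins. Nidogens link the laminin network to the collagen IV network, and perlecan and agrin add heparan sulfate chains that bind growth factors.

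Cells were classed by marker genes, none of which is one of the 10. A cell entered a class when at least 3 class markers had a UMI (unique molecular identifier, the count of a captured transcript) and when the share of markers detected was at least 0.2 above that of any other class. This gave 406 control and 141 knockout endothelial cells, 248 and 157 mural cells (pericytes and smooth muscle), 445 and 379 glial cells, and 565 and 355 mesenchymal cells. Immune cells, with 586 and 611, served as a rough measure of free RNA. Whether transcripts of their own add to it was not tested. They held 3.26% of control and 6.47% of knockout Nid2 UMIs but 0.45% and 0.97% of Lama4 UMIs. The 10 endothelial markers summed to 8094 and 8807 CPM (UMI counts scaled to a total of 1e+06) in the endothelial class and to at most 361 CPM in the others. The classes of the control and knockout libraries held between 1054388 and 8898152 UMIs, and the median cell was deeper in the control library in every class (9853.5 against 5961 UMIs in endothelial cells). Kdr, which encodes VEGFR2, was at 1054 CPM in control and 649.7 CPM in knockout endothelial cells. Tags at the 3' end of a transcript check nothing about an upstream deletion. The libraries also differed in sex: 1714 control and 873 knockout cells had Xist without Y-linked UMIs, and 328 and 447 had the reverse. With a single library per genotype there is no replicate check, and no tests were run. The version of the counting software also differed between the libraries and cannot be told apart from genotype. Intervals (exact, 95%) cover counting error only, and ratios are knockout over control.

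Promoter sequences from RefSeq (build GRCm38.p6) are shown for 3 of the genes, chosen for their different patterns over the classes. Lama5 and Hspg2 were lower in knockout endothelial cells and higher in other knockout classes. Lama2 in endothelial cells was close to its level in immune cells. Each runs 5' to 3' on the strand of the gene and ends at the RefSeq start site or, for Hspg2, before the first annotated exon. The Lama2 window lies inside the span that GENCODE gives the gene, outside its exons. Capitals mark the GC box GGGCGG, searched on both strands. The ETS core CCGGAA, the box CCAAT and the box TATAAA were searched in the same way and had 0 matches in these 3 windows.
Lama5, chr2:180225860-180226109, minus strand: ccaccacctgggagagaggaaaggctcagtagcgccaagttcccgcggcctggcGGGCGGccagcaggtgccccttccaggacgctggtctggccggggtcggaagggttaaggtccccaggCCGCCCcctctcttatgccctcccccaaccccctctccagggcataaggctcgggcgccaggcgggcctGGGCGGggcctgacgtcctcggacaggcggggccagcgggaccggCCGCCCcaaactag
Hspg2, chr4:137468553-137468768, plus strand: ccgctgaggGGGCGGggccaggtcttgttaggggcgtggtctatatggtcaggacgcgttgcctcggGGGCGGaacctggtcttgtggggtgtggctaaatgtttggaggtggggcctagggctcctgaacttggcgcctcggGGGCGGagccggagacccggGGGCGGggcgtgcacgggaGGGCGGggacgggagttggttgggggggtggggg
Lama2, chr10:27616943-27617192, minus strand: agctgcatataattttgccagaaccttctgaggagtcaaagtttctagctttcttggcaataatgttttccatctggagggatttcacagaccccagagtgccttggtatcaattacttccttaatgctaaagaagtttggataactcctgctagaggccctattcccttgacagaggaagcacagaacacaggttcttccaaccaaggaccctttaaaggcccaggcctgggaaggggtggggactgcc
The 250 bases before the start site held 4 GC boxes in Lama5, 5 in Hspg2 and 0 in Lama2, and the GC content was 72.4% in Lama5 and 47.2% in Lama2. Of 32851 promoters in the table, 32.7% held the GC box in the same 250 bases, 12% the ETS core, 33.8% the CCAAT box and 12.4% the TATAAA box, and the median GC content was 52.4%. A promoter was listed for 7 of the 10 genes. These matches describe the letters of the windows and were not tested for a part in the results.

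Each class had its own set of chains. All 10 genes are protein coding (GENCODE M21, GRCm38). Because a 3' tag counts each transcript once whatever its length, CPM can be set side by side between genes, although capture can differ from gene to gene. Endothelial cells carried mostly Lama4 with Lama5, glial cells Lama4 with Lama2, mural cells Lama4 with Lama2 and Lama5, and mesenchymal cells low levels of Lama4, Lama2 and Lama1. Lama4 (chromosome 10, plus strand, 38965515 to 39110188) made up 74.7% of the laminin alpha UMIs of control endothelial cells (interval 73.2 to 76.2%). Its share was 63.7% in mural, 62.1% in glial and 54.4% in mesenchymal control cells. Lama5 (chromosome 2, minus strand, 180176373 to 180225859) made up 20.3% of the alpha UMIs in control endothelial cells, 13.3% in mural cells and under 1% in the glial and mesenchymal classes (0.700% and 0.784%). Lama2 (chromosome 10, minus strand, 26980036 to 27619758) went the other way, at 37.2% in glial and 0.476% in endothelial control cells.

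The beta chains divided the classes as sharply. Lamb1 (chromosome 12, 31265234 to 31329644) made up 94.4% of the Lamb1 and Lamb2 UMIs in control glial cells and 67.2% in endothelial cells. In mural and mesenchymal cells Lamb2 (chromosome 9, 108479736 to 108490530) held the greater part, at 67.8% and 60.3%. Nid1 (chromosome 13, 13437551 to 13512269) was the main nidogen of mural and glial control cells, with 86.2% and 87.0% of nidogen UMIs. Nid2 (chromosome 14, 19751265 to 19811787) came close to it in endothelial and mesenchymal cells, at 44.0% and 49.7%. Nid2 overlaps Rtraf on the other strand.

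**Figure D1:**
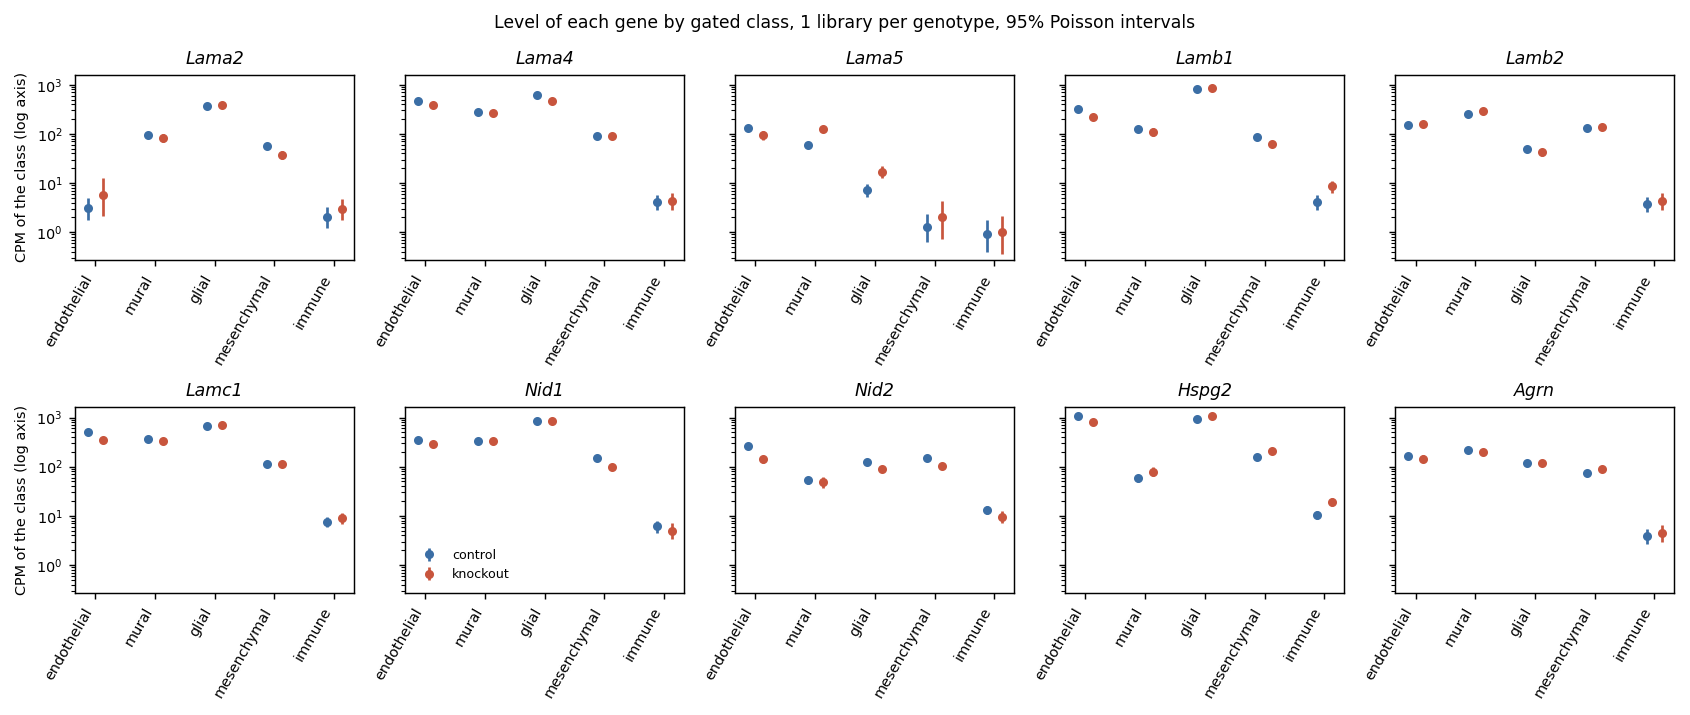
Level of each of the 10 genes in 5 gated classes, in CPM of the class on a log axis, with control in blue and knockout in red (1 library each, bars are 95% Poisson intervals). Lama2 runs from 375.5 CPM in control glial cells to 3.04 CPM in endothelial cells, Lama5 from 129.9 CPM in control endothelial cells to 0.899 CPM in immune cells, and the immune class is at the bottom for every gene.

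Laminin levels differed more between classes than between chain types. Levels were summed over the alpha genes, the beta genes (Lamb1, Lamb2 and Lamb3) and the gamma genes. In this order control endothelial cells had 639.4, 472.4 and 506.3 CPM, and control mural cells 444.1, 382.5 and 374.9 CPM. Control glial cells had 1011, 874.2 and 673.3 CPM. The glial class thus had the highest laminin level of the 4. Mesenchymal cells had the lowest, at 166.3, 220.6 and 124.0 CPM. After each cell was thinned to 2000 UMIs, 42.2% of glial cells in either library held a UMI of all 3 chain types (187 of 443 control and 152 of 360 knockout cells). In endothelial cells this share was 28.2% of control cells (105 of 373, interval 23.6 to 33.0%) and 13.9% of knockout cells (15 of 108, interval 7.99 to 21.9%). Without thinning the share was 81.3% of control and 52.5% of knockout endothelial cells, and 97.1% and 87.6% of glial cells. Thinning left out 33 endothelial cells of each library, out of 406 control and 141 knockout cells, so a greater part of the knockout cells was lost.

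Lama4 and Lamc1 had the most similar profiles of the 10 genes to each other. Over the 10 values of 5 classes in 2 libraries, the Pearson correlation of log2(CPM + 10) between Lama4 and Lamc1 was 0.996, the highest for either of them among 12137 genes. The 3 genes most like Lamc1 were Lama4, Dctn1 and Nid1 (0.989). Agrn was closest to Fermt2 (0.991), Lamb2 to Amotl1 (0.997) and Nid2 to Rdx (0.984). The closest genes were Ptpn13 for Lama2 (0.979), Rnf152 for Lama5 (0.973), Ccser2 for Lamb1 (0.995), Cfl2 for Nid1 (0.995) and Fyn for Hspg2 (0.985). The 10 points share 2 libraries and their depth, so these values are descriptions.

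In endothelial cells most of the 10 genes were lower in the knockout library, and Nid2 was the lowest. Of the 10 genes, 2 had a ratio above 1 and 8 below it, while 48.1% of all genes were above 1, and the median log2 ratio was −0.38, beside −0.021 over all 10898 genes with at least 20 UMIs in the class. Past 1.5-fold, 1 gene was lower (Nid2), against 15.2% of all genes tested, and 1 was higher (Lama2), against 11.9%. A count of 1 in 10 is near both backgrounds. Among genes with at least 50 UMIs, 1 of 9 was lower against 12.6% and 0 of 9 higher against 10.1%. Lama2 rested on 16 and 6 UMIs, at 3.04 and 5.69 CPM, close to its 2.02 and 2.97 CPM in immune cells, and is read as background.

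Nid2 was at 268.5 CPM in control and 143.2 CPM in knockout endothelial cells (1411 and 151 UMIs), and the ratio was 0.534 (interval 0.448 to 0.631). A single knockout cell held 12.6% of these Nid2 UMIs, and the ratio was 0.494 without the top cell of each library. The nidogen partner Nid1 was at 341.7 and 284.5 CPM, a ratio of 0.833 (interval 0.734 to 0.942). Nid1 therefore made up 56.0% of control and 66.5% of knockout nidogen UMIs (intervals 54.3 to 57.7% and 61.9 to 70.9%). The share of thinned endothelial cells with a Nid2 UMI was 36.2% (135 of 373) and 18.5% (20 of 108), against 3.50% and 3.28% of immune cells. Without thinning it was 67.2% and 34.0%, against 15.02% and 8.67% of immune cells.

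Among the laminin chains of endothelial cells, Lamb1 was at 317.5 CPM in the control and 219.1 CPM in the knockout library, and Lamc1 at 505.7 and 351.9 CPM. Their ratios were 0.690 (interval 0.599 to 0.792) and 0.696 (interval 0.623 to 0.776). Split by sex, the Lamb1 ratio was 0.544 among cells with Xist and 0.953 among cells with Y-linked UMIs. For Lamc1 these ratios were 0.615 and 0.778. Lama4 was at 477.7 and 378.4 CPM (ratio 0.792, interval 0.711 to 0.881), and Lama5 at 129.9 and 93.9 CPM (ratio 0.723, interval 0.579 to 0.893). Lamb2 was at 154.9 and 158.4 CPM, so its share of the beta UMIs was 32.8% in the control and 42.0% in the knockout library. Lamc1 lies on chromosome 1 (minus strand, 153218922 to 153332786).

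The proteoglycans of endothelial cells also had lower values in the knockout library. Hspg2 encodes perlecan and lies on chromosome 4 from 137468769 to 137570630. It had the highest level of the 10 genes in control endothelial cells, at 1072 CPM, and was at 803.3 CPM in knockout cells (ratio 0.750, interval 0.697 to 0.806). Agrn (chromosome 4, 156165290 to 156197488) encodes agrin, the organiser of the nerve-muscle synapse that is also found in capillary walls. It was at 163.4 and 145.1 CPM, and its interval of 0.743 to 1.06 included 1. In the same class the summed level of 10 mural markers was 80.5 CPM in the control and 312 CPM in the knockout library, with 1 and 0 markers at 0. That of 10 immune markers was 90.4 and 176.4 CPM. Their part in these results was not tested.

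**Figure D2:**
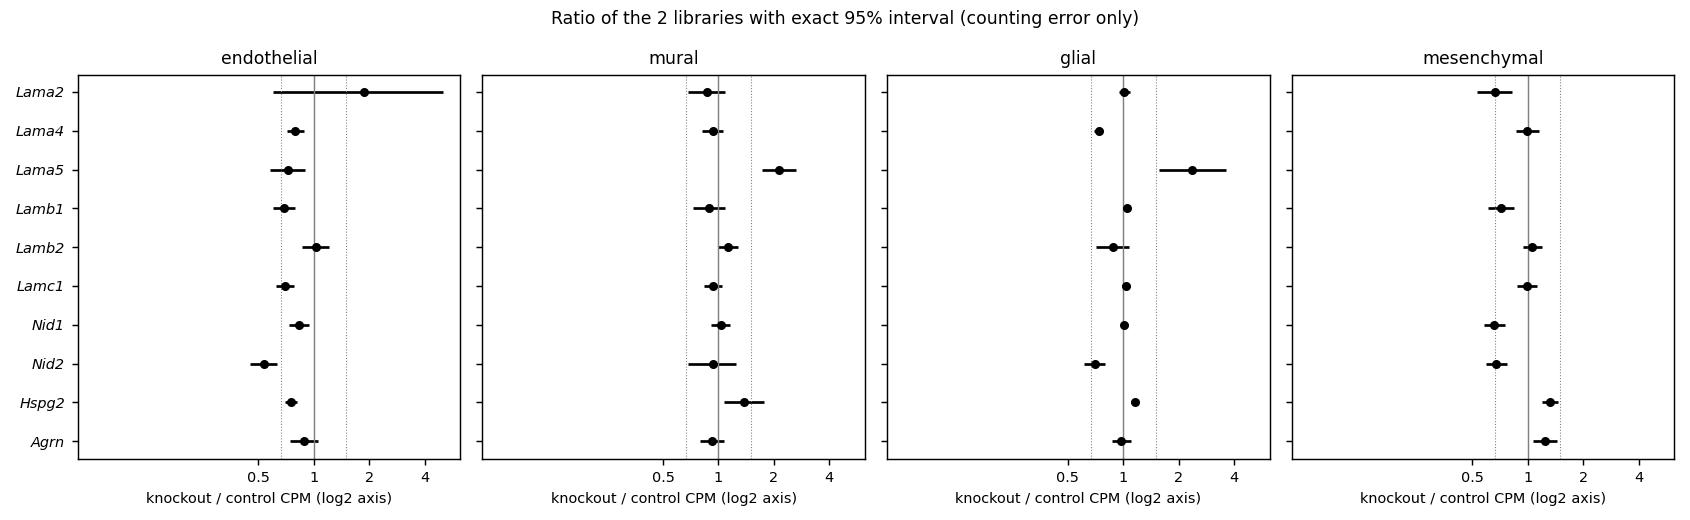
Knockout over control ratio of each gene in 4 gated classes on a log2 axis, with exact 95% intervals for counting error and dotted lines at 1.5-fold either way. In the endothelial panel 8 of 10 points lie left of 1, and Lama5 lies right of the 1.5-fold line in mural (2.13) and glial (2.38) cells. Lama5 had under 20 UMIs in mesenchymal cells and is not drawn there.

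Endothelial clusters differed in their levels and in their share of the 2 libraries. Clustering without the 10 genes and Kdr split the class into a cluster led by Esm1, Kdr and Flt1 (129 control and 17 knockout cells), genes of sprouting capillaries, one led by Vwf and Aplnr (219 and 89) and one led by Cldn5 and Mecom (57 and 35), in which the arterial genes Gja5 and Sox17 were among the leading genes. The Esm1-led cluster held 31.8% of control but 12.1% of knockout endothelial cells, and it had the highest level of Lama4, Lamb1, Lamc1, Nid1, Nid2 and Hspg2 in both libraries. Hspg2 was at 1863 and 1728 CPM there, against 765.0 and 735.3 CPM in the Vwf-led cluster. With the shares of the clusters held equal, the ratio was 0.929 for Hspg2, 0.948 for Lama4, 1.05 for Nid1, 0.833 for Lamb1 and 0.786 for Lamc1. For Lamb2 it was 0.740, against 1.02 in the class as a whole. The Lamb2 share of beta UMIs, higher in the knockout library over the class, was 21.5% and 22.2% in the Esm1-led, 31.9% and 22.2% in the Vwf-led and 71.6% and 72.9% in the Cldn5-led cluster. Kdr had ratios of 1.05 in the Esm1-led (2024 and 2120 CPM), 0.895 in the Vwf-led (interval 0.794 to 1.01) and 0.291 in the Cldn5-led cluster (828.6 and 240.9 CPM).

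Lama5, Lamb2, Lamc1, Nid2 and Hspg2 had ratios below 1 within all 3 endothelial clusters. For Lamc1 the ratios were 0.778, 0.814 and 0.717 in the Esm1-led, Vwf-led and Cldn5-led clusters, each with an interval below 1. Nid2 was at 493.4 and 445.8 CPM in the Esm1-led cluster (ratio 0.903, interval 0.678 to 1.18). In the Vwf-led cluster it was at 174.9 and 112.6 CPM (0.644, interval 0.491 to 0.833), and in the Cldn5-led cluster at 198.5 and 82.3 CPM (0.415, interval 0.266 to 0.626). With cluster shares held equal its ratio was 0.757. Lama5 had ratios of 0.743 (interval 0.434 to 1.20), 0.635 (0.425 to 0.918) and 0.731 (0.516 to 1.02) in the same order, and 0.699 with shares held equal. The Cldn5-led cluster had its own chain set, with Lamb2 at 353.5 and 332.0 CPM above Lamb1 at 140.5 and 123.4 CPM, whereas Lamb1 led in the other two clusters. Lama5 made up 32.3% and 29.7% of its alpha UMIs.

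In mural cells Lama5 had the highest ratio of the 10 genes. It was at 59.0 CPM in the control library (186 UMIs) and 126.0 CPM in knockout cells (157 UMIs), and the ratio was 2.13 (interval 1.71 to 2.65). Lama5 was the 1 gene of 10 past 1.5-fold higher, against 11.2% of all 10514 genes tested, and 0 of 10 were past it lower, against 11.6%. At 50 UMIs or more the counts were again 1 and 0 of 10, against 9.05% and 8.63%. A count of 1 in 10 is near the background of higher genes. The median log2 ratio of the 10 was −0.10, beside 0.013 over all genes. Lama5 thus made up 13.3% of alpha UMIs in the control and 25.3% in the knockout library (intervals 11.6 to 15.2% and 21.9 to 28.9%), while the Lama4 share was 63.7% and 52.9%. Thinned to 2000 UMIs, 9.43% of control (23 of 244) and 17.9% of knockout mural cells (26 of 145) had a Lama5 UMI, against 0.175% and 0% of immune cells (0 of 579 knockout cells, where the exact upper bound on the share of cells with a UMI is 0.635%). Without thinning the mural shares were 35.5% and 51.6%. Split by sex, the ratio was 2.65 among cells with Xist and 1.28 among cells with Y-linked UMIs. Endothelial markers summed to 346 and 361 CPM in the mural class, with 0 and 1 of 10 at 0, and mesenchymal markers to 776.5 and 1077 CPM. The part of the mesenchymal markers was not tested.

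The mural Lama5 lay in the smooth muscle cluster. In the cluster led by Myh11, Acta2 and Rgs5 (181 control and 119 knockout cells) it was at 73.0 and 162.3 CPM, a ratio of 2.22 (interval 1.78 to 2.78). In the cluster led by Spp1, Mgp and Cyp26b1 (54 and 36 cells), which also carried the pericyte genes Kcnj8 and Abcc9, it had 2 and 4 UMIs. Another alpha chain, Lama3, was also higher in mural cells, with 14 and 31 UMIs (4.44 and 24.9 CPM, ratio 5.60, interval 2.89 to 11.4). In endothelial cells Lama3 was at 28.5 and 50.3 CPM (ratio 1.76, interval 1.26 to 2.42), and it was at 104.3 and 123.4 CPM in the Cldn5-led cluster (ratio 1.18, interval 0.789 to 1.75).

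Among the remaining mural genes, Hspg2 was at 57.8 and 79.4 CPM (ratio 1.37, interval 1.06 to 1.77). It went opposite ways in the clusters, at 55.3 and 91.3 CPM in the Myh11-led cluster and 74.0 and 45.6 CPM in the Spp1-led one. Lamc1 was at 363.8 and 340.1 CPM, Nid1 at 327.9 and 336.9 CPM, Lamb2 at 259.4 and 292.8 CPM, and Agrn at 218.7 and 202.2 CPM, each with an interval that included 1. Agrn and Lamb2 had their highest level of the 4 classes in mural cells in both libraries. Lama2 was at 95.2 and 82.6 CPM over the class, and at 90.6 and 60.2 CPM in the Myh11-led cluster (ratio 0.664, interval 0.486 to 0.894). In the Spp1-led cluster it was at 123.4 and 161.3 CPM (ratio 1.31, interval 0.871 to 1.95).

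**Figure D3:**
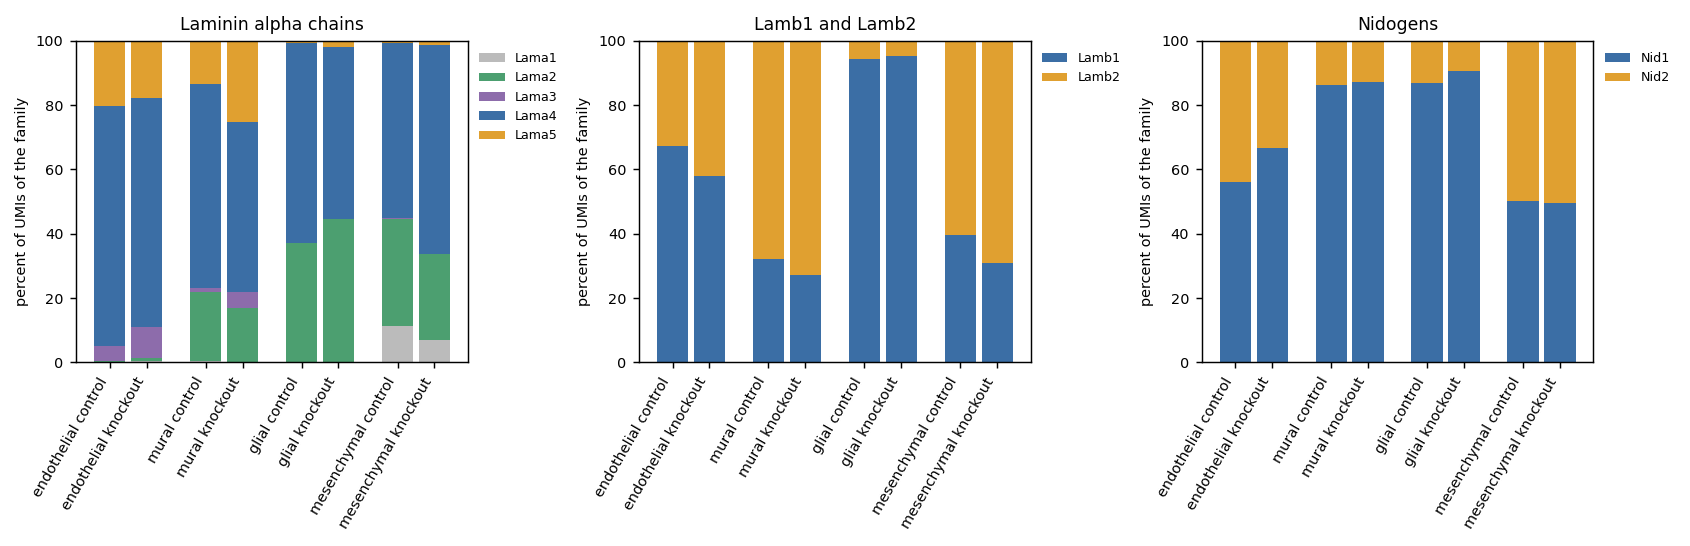
Percent of the UMIs of each chain family in 4 gated classes, control and knockout bars side by side, for the 5 laminin alpha genes, Lamb1 with Lamb2, and Nid1 with Nid2. The Lama5 part of mural alpha UMIs is 13.3% in the control and 25.3% in the knockout bar, and the Nid2 part of endothelial nidogen UMIs is 44.0% and 33.5%.

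Glial cells, which carried Schwann cell markers, had Nid1, Lamb1, Lamc1, Lama2 and Agrn at ratios between 0.979 and 1.05 over the class as a whole. Schwann cells lie around nerve fibres and build a basement membrane of their own. Nid1 was at 847.2 and 861.0 CPM, Lamb1 at 825.7 and 863.0 CPM, Lamc1 at 673.1 and 699.8 CPM, and Lama2 at 375.5 and 381.7 CPM. The median log2 ratio was 0.023, beside 0.013 over all 11499 genes. Past 1.5-fold, 1 gene of 10 was higher (Lama5), against 10.3% of all genes, and 0 were lower, against 9.37%. At 50 UMIs or more the counts were the same, against 7.7% and 7.59%. A count of 1 in 10 is near the background of higher genes here too. The interval was 0.971 to 1.06 for Nid1 and 0.949 to 1.09 for Lama2.

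Lama4, Nid2 and Lama5 differed between the glial libraries. Lama4 was at 628.0 CPM in the control and 461.6 CPM in the knockout library (ratio 0.735, interval 0.693 to 0.780), and its part of the alpha UMIs was 62.1% and 53.6%. Nid2 was at 126.5 and 88.7 CPM (ratio 0.702, interval 0.613 to 0.802). Lama5 was at 7.07 and 16.8 CPM, from 42 and 59 UMIs, and the ratio was 2.38 (interval 1.58 to 3.62). That is a low level beside the 129.9 CPM of control endothelial cells, yet above the 0.899 and 0.990 CPM of immune cells. Endothelial markers in the glial class summed to 74.6 and 64.8 CPM, with 0 of 10 at 0 in either library, and immune markers to 54.4 and 131.2 CPM. The glial markers themselves summed to 21650 and 32234 CPM, and the part of these differences was not tested. Hspg2 was at 942.2 and 1087 CPM (ratio 1.15, interval 1.11 to 1.20).

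Within the glial class, the cluster led by Scn7a (158 control and 127 knockout cells), a gene of Schwann cells that do not form myelin, had the highest Lama4 level, at 877.8 and 718.1 CPM. Lama4 made up 73.2% and 68.4% of its alpha UMIs. The cluster led by Epha5 held 26.5% of control and 15.8% of knockout glial cells. Lama4 had a ratio of 0.818 in the Scn7a-led, 0.824 in the Epha5-led and 0.767 in the dividing cluster. With cluster shares held equal it was 0.822 over the class. For Lamc1 the ratios were 0.8625, 0.852 and 0.930 in the same order, and 0.954 with shares held equal. Lamb1 had a ratio of 0.877 in the Scn7a-led (interval 0.792 to 0.970) and 1.15 in the Epha5-led cluster (1.037 to 1.275). For Nid1 these ratios were 1.09 (interval 1.009 to 1.175) and 0.880 (0.774 to 0.999). Nid2 did not keep its side of 1, at 151.3 CPM in control and 133.2 CPM in knockout cells of the Scn7a-led cluster but 154.6 and 172.7 CPM in the Epha5-led cluster. Its ratio with shares held equal was 0.932. Lama5 was at 12.5 and 23.3 CPM in the Scn7a-led cluster (21 UMIs in each library, ratio 1.87, interval 0.972 to 3.60).

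**Figure D4:**
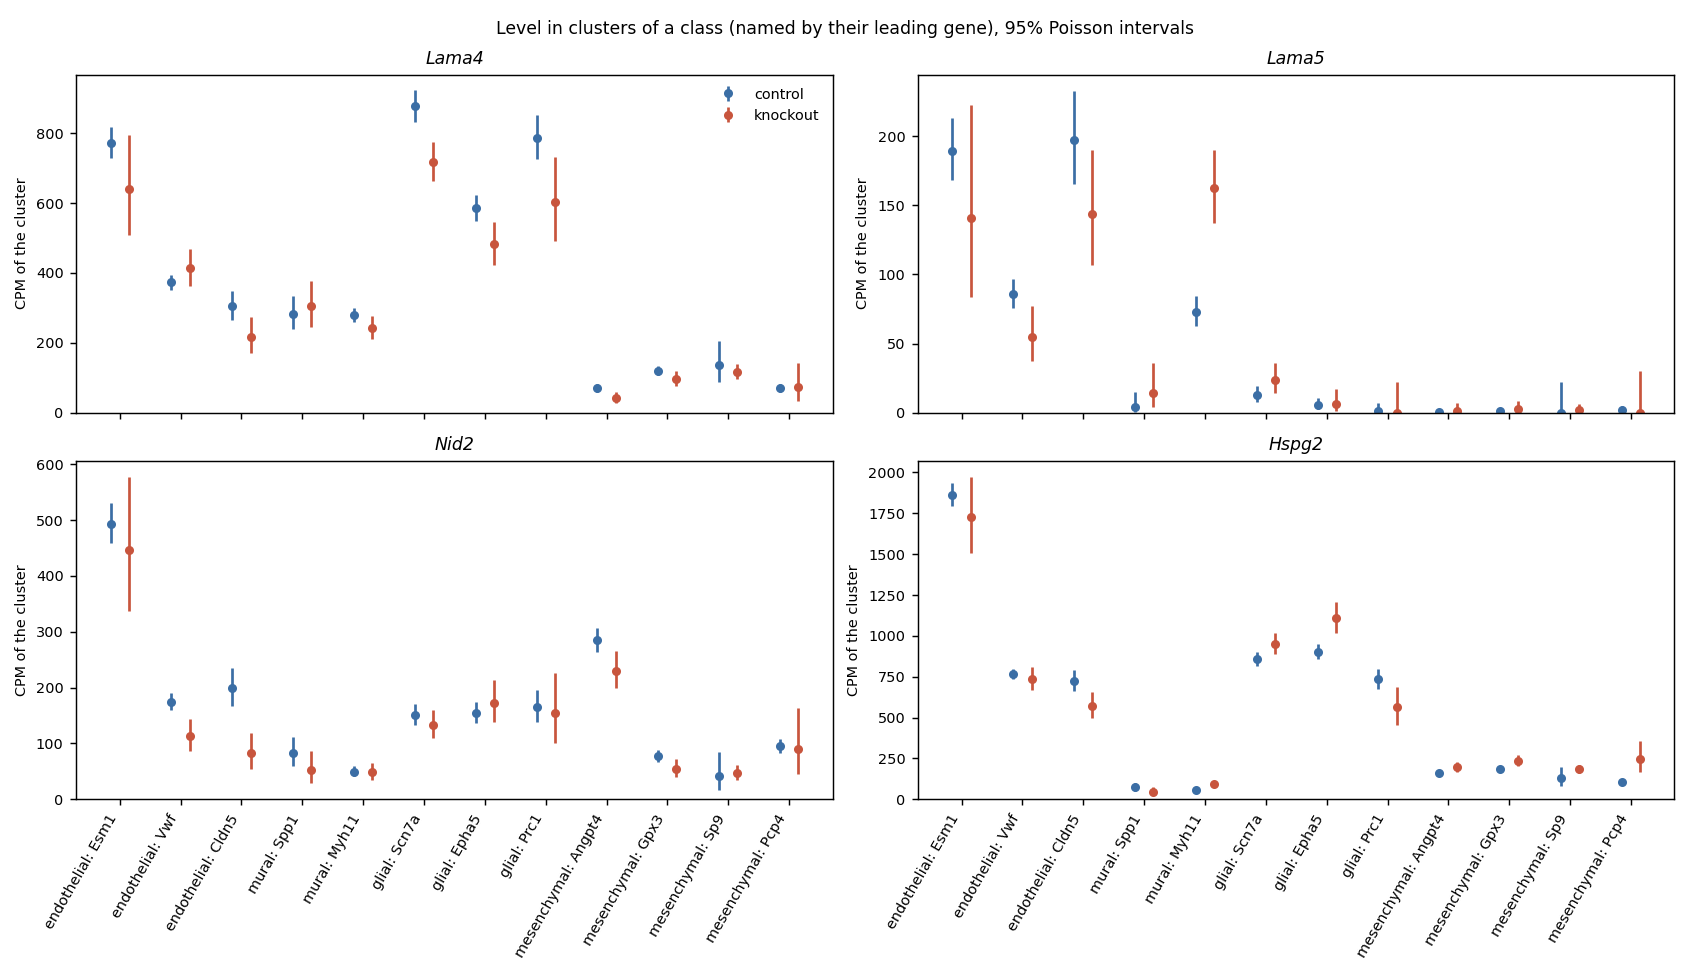
Levels of Lama4, Lama5, Nid2 and Hspg2 in clusters of the 4 classes, in CPM of the cluster with 95% Poisson intervals, control in blue and knockout in red, clusters named by their leading gene. Lama5 is at 73.0 and 162.3 CPM in the Myh11-led mural cluster, and Hspg2 reaches 1863 CPM in the Esm1-led endothelial cluster.

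In mesenchymal cells, the fibroblast-like cells of the pulp, the nidogens and Lama2 were lower in the knockout library and perlecan was higher. Lama5 had 10 and 6 UMIs and was left out, so 9 genes were compared. Their median log2 ratio was −0.012, beside −0.046 over all 12648 genes. Past 1.5-fold, 2 of 9 were lower (Nid1 and Lama2), against 12.8% of all genes, and 0 were higher, against 11.6%. At 50 UMIs or more these counts were the same, against 10.9% and 8.96%. Nid1 was at 152.3 and 100.4 CPM (ratio 0.659, interval 0.579 to 0.749) and Lama2 at 55.7 and 36.9 CPM (ratio 0.663, interval 0.533 to 0.818), just past the limit of 0.667. Nid2 was just short of it, at 150.4 and 101.7 CPM (ratio 0.676, interval 0.594 to 0.767).

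Hspg2 was at 154.1 and 204.4 CPM in mesenchymal cells, a ratio of 1.33 (interval 1.20 to 1.46), and its ratio lay between 1.21 and 2.33 in the 4 clusters measured. Agrn was at 74.0 and 91.7 CPM (ratio 1.24, interval 1.07 to 1.43), but its ratio was 0.871 when cells had to have 1000 genes, 2000 UMIs and at most 5% mitochondrial UMIs. Lamb1 was at 87.5 and 62.8 CPM (ratio 0.718), while Lama4, Lamc1 and Lamb2 had ratios of 0.992, 0.995 and 1.06, each with an interval that included 1. Lama1, an alpha chain not among the 10, was at 18.6 and 9.64 CPM and was close to absent from the other classes, with at most 8 UMIs in any of them. Of its 143 control UMIs 90 lay in the cluster led by Pcp4, which held 120 control and 18 knockout cells. There Lama1 made up 23.9% of control alpha UMIs and 0 of 14 knockout alpha UMIs, where the exact upper bound is 23.2%. In the Angpt4-led cluster Lama1 made up 9.33% of control and 16.1% of knockout alpha UMIs (35 and 14 UMIs).

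Cluster shares differed most in this class. The cluster led by Sp9 and Gm26802 held 4.07% of control and 38.6% of knockout mesenchymal cells, and that led by Pcp4 and Smoc2 held 21.2% and 5.07%. The Pcp4-led cluster had the highest Nid1 level of the class, at 238.0 and 190.0 CPM, and its knockout cells were shallow, with a median of 3198 UMIs against 17708. The Angpt4-led cluster, with its cartilage genes Col9a1 and Col9a3, had the highest Nid2 level, at 284.8 and 230.2 CPM. With cluster shares held equal the ratios of Nid1 and Nid2 were 0.813 and 0.820, both short of 1.5-fold, and that of Lama2 was 0.685. Those of Lama4 and Lamb2, near 1 over the class, were 0.813 and 0.820, and that of Lamc1 was 0.986. Within the 4 clusters the ratio of Lama2 lay between 0.620 and 0.828. That of Lama4 lay between 0.594 and 1.075 and that of Lamb2 between 0.749 and 1.035. Without the Sp9-led cluster Nid2 had a ratio of 0.873 and Nid1 of 0.691. Among cells with Y-linked UMIs Nid1 and Nid2 had ratios of 0.977 and 0.986. Mural markers in the class summed to 245.9 and 594.9 CPM and epithelial markers to 265.8 and 143.6 CPM. Immune markers summed to 71.7 and 164.5 CPM and glial markers to 111.6 and 189.4 CPM. Their part in these results was not tested.

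Which cells supplied the transcripts also differed between the libraries. Endothelial cells were 17.6% of kept control and 8.40% of kept knockout cells. They held 73.0% of all Lama5 UMIs in the control and 29.9% in the knockout library, whereas mural cells held 19.9% and 47.4%. For Hspg2 the endothelial part was 44.1% and 15.2%, and the glial part 43.8% and 68.6%. Glial cells held 73.2% and 83.9% of Lama2 and 63.3% and 82.6% of Lamb1 UMIs. Over all kept cells, Nid2 was at 116.0 CPM in the control and 59.5 CPM in the knockout library (ratio 0.513), Lama4 at 253.5 and 178.3 CPM (0.703), and Lamb1 at 246.3 and 243.1 CPM (0.987). These whole-library ratios combine the share of each class and the level within it.

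**Figure D5:**
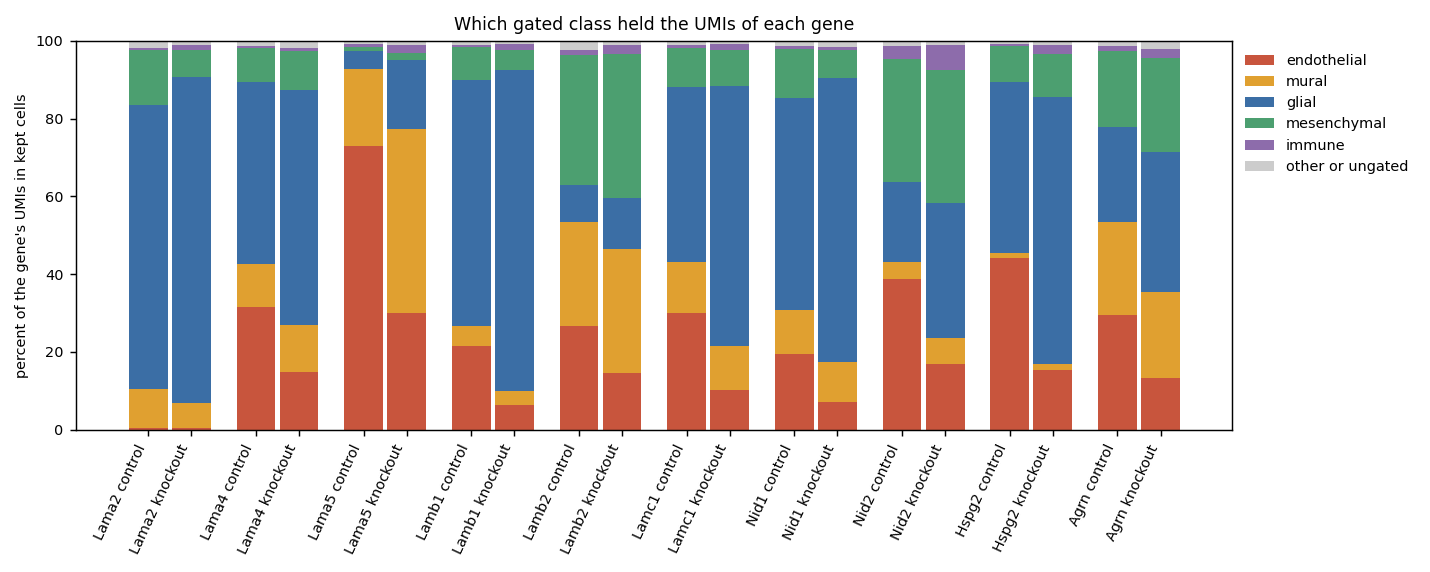
Percent of the UMIs of each gene held by each gated class among kept cells, control and knockout bars side by side for the 10 genes. The endothelial part of Lama5 is 73.0% in the control bar and 29.9% in the knockout bar, and glial cells hold the greatest part of Lama2 and Lamb1 in both.

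The other basement membrane genes went in more than one direction. Collagen IV, the other network of the sheet, was lower in knockout endothelial cells, with Col4a1 at 3987 and 2927 CPM (ratio 0.734, interval 0.707 to 0.762) and Col4a2 at 2323 and 1565 CPM (0.674, interval 0.640 to 0.709). Their ratios were 0.814 and 0.735 in the Esm1-led, 1.04 and 0.970 in the Vwf-led and 0.560 and 0.528 in the Cldn5-led cluster. Of 66 measured genes in the 6 other lists (further laminin chains, collagen IV, other basement membrane proteins, laminin receptors, assembly and remodelling), 20 were past 1.5-fold higher and 11 lower in endothelial cells, beside the 11.9% and 15.2% of all genes. Their median log2 ratio was 0.074. Itgb4, a beta partner of the laminin receptor integrin alpha 6, was at 56.3 and 136.6 CPM there (ratio 2.43, interval 1.97 to 2.97). The matrix protease gene Adamts5 and the heparan sulfatase gene Sulf2 were at 29.5 and 10.4 CPM and at 24.5 and 9.48 CPM.

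In mural cells 18 of 64 such genes were past 1.5-fold higher and 4 lower, beside 11.2% and 11.6% of all genes, and the median log2 ratio was 0.26. Timp3, an inhibitor of matrix proteases, was at 180.9 and 411.5 CPM, the protease Adamts1 at 130.2 and 299.2 CPM, the crosslinking enzyme Loxl2 at 49.5 and 124.3 CPM, and the heparan sulfate enzyme Ndst1 at 20.6 and 52.95 CPM. Glial cells had 3 of 64 higher and 3 lower, beside 10.3% and 9.37%. Col18a1, a collagen proteoglycan of basement membranes, was at 1100 and 730.9 CPM there (ratio 0.664, interval 0.634 to 0.695), Frem1 at 16.5 and 32.8 CPM, the lysosomal protease Ctsl at 179.5 and 265.3 CPM, and Ndst1 at 35.5 and 53.1 CPM. Mesenchymal cells had 17 of 75 higher and 11 lower, beside 11.6% and 12.8%. The collagen hydroxylase P4ha1 was at 48.2 and 126.0 CPM. Fras1 was at 30.8 and 7.64 CPM and Smoc2 at 101.8 and 32.9 CPM, and Smoc2 is a leading gene of the Pcp4-led cluster that held fewer knockout cells.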

How the data were processed

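Deposited values are UMI counts per gene and barcode, not normalised, in filtered matrices of 10x Chromium 3' v3.1 libraries, per the labels' protocols. Per the file headers, Cell Ranger 5.0.0 wrote the control and 6.0.1 the knockout matrix, and the submitters' processing notes name 6.0.1 and mm10. The tables held 3487 and 2563 barcodes, 3 of them shared, with 35918862 and 17277162 UMIs.

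Cells with at least 500 genes, 1000 UMIs and at most 10% mitochondrial UMIs were kept. Scrublet (in scanpy) removed 20 and 4 doublets (0.598% of 4012 cells, so doublets remain), leaving 2309 and 1679 cells, of which 59 and 35 entered no class. A class so set is a range: 34 control and 15 knockout cells lay within 0.1 below the margin of the 4 classes. The class names match clusters for at least 99.6% of endothelial, mural and glial cells, and for 74.5% and 91.3% of mesenchymal cells, since the Pcp4-led and Ambn-led clusters stayed unnamed. Clusters came from 2000 variable genes, 30 principal components and 15 neighbours (Leiden, resolution 1), without the 10 genes, Kdr and sex-linked genes. UMIs were summed per class and scaled to the class total. Gene positions are from GENCODE M21 (GRCm38).

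All 10 genes, Kdr, Col4a1 and Col4a2 are named. So are, per class, the 4 other listed genes with the largest absolute log2 ratios among those with at least 100 UMIs. Lama1 and Lama3 were named after their values were seen. A gene that this rule names and a glial cluster are not reported here. The genes, lists and classes were chosen with earlier results of these data known. Alternatives covered gate, filter, doublets, thinning, weighting, scaling, sex and clusters. Python 3.11.15, scanpy 1.11.5, numpy 2.4.6, scipy 1.17.1 and pandas 2.3.3 were used, and the interval code was tested on simulated data.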

Additional observations from a re-analysis of the deposited data

Results flagged for a closer look

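Lama5 and Hspg2 had intervals wholly below 1 in endothelial cells and wholly above 1 in other classes, and the difference between classes was not tested. For Lama5 the ratio was 0.723 in endothelial, 2.13 in mural and 2.38 in glial cells. For Hspg2 it was 0.750 in endothelial, 1.37 in mural, 1.15 in glial and 1.33 in mesenchymal cells. Within endothelial clusters the ratios of Hspg2 were 0.928, 0.961 and 0.789. In immune cells Hspg2 was at 10.45 and 19.5 CPM, from 93 and 118 UMIs, and in mural cells it was at 57.8 and 79.4 CPM.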

How the results depend on the processing

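No paired analysis was possible because each genotype has 1 library and the labels carry no replicate numbers. For the same reason no library could be left out. The median log2 ratio of the 10 genes in endothelial cells, −0.38, was −0.61 in cells thinned to 2000 UMIs and −0.68 in cells with Xist, and lay between −0.47 and −0.27 under the other alternatives. In glial cells it was −0.0826 in cells with Y-linked UMIs, against 0.023, and in mesenchymal cells −0.29 with cluster shares held equal, against −0.012. Of 669 values of single genes under alternatives, 516 lay within the interval of the reported ratio and 153 outside it. Among these values no gene past 1.5-fold changed to the other side of 1. Not every cluster entered: Lama2 in endothelial cells had 8 alternatives and 0 cluster values. It had 3 control and 0 knockout UMIs in the Cldn5-led cluster. Lama5 in the dividing glial cluster had 1 and 0 UMIs. Genes short of 1.5-fold did change side, also some whose interval excluded 1. In endothelial cells Lamb1 (0.690) and Lama4 (0.792) had ratios of 1.03 and 1.11 in the Vwf-led cluster. Endothelial Nid1 (0.833) had 1.055 with cluster shares held equal. The mural median, −0.10, lay between −0.14 and 0.076. Lama5 in endothelial cells had a ratio of 0.477 in cells with Xist and 0.86 in cells with Y-linked UMIs. Nid2 in glial cells had a ratio of 0.976 in cells with Y-linked UMIs, against 0.702. In mural cells Nid2 had 0.561 when thinned and Lamb1 1.47 in cells with Y-linked UMIs, against 0.886. Lama2 in endothelial cells was at 1.01 with doublets kept. Alternatives on cluster shares, dividing clusters and the Sp9-led cluster were chosen after seeing the data. With a minimum of 50 UMIs, 11 of 54 other listed genes were past 1.5-fold higher in mural cells, against 18 of 64. With 1 UMI in each library as the minimum, 8 of 83 were lower there, against 4, and 9 of 77 higher in glial cells, against 3. Low counts limit Lama2 in endothelial cells (16 and 6 UMIs) and Lama5 in mesenchymal (10 and 6) and glial cells (42 and 59).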
